A study of Homo sapiens with 9 samples.

Results

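The transcripts of the ISG15 conjugation system were followed across 9 expression arrays of U937 cells. The 6 genes were chosen by name, as the modifier ISG15, its activating enzyme UBA7, its conjugating enzyme UBE2L6, the HERC-family proteins HERC5 and HERC6 and the ISG15-specific protease USP18. They were represented by 8 of the 47323 probes on the array, and they are 6 of the 20046 genes with a named probe. All 6 passed the filter on dim probes, which kept probes detected above the negative control beads (detection p under 0.01) on at least 3 arrays and left 8611 genes to be tested.

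ISG15 is a small ubiquitin-like protein that is attached covalently to other proteins in an enzyme cascade parallel to that of ubiquitin. UBA7 activates it as the E1 enzyme, UBE2L6 carries it as the E2 enzyme and HERC5 is the main human E3 ligase, while Herc6 holds that role in the mouse. USP18 removes ISG15 from its targets and also restrains signalling from the type I interferon receptor. In most cells, those of the myeloid lineage included, the genes of the cascade are induced by type I interferon.

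U937 is an established human line of myeloid type, first grown from a histiocytic lymphoma. The cells had received a lentiviral H1 vector with a hairpin against DEK, a chromatin protein, which was shDEK14 in 1 group and shDEK17 in another, or with no hairpin (shEMPTY), and all 9 samples were sorted for GFP 48 h later and grown for 4 more days. Each of the 3 groups held 3 libraries, all from a single cell line, and the control lacked an unrelated hairpin. The labels do not say whether replicates came from separate transductions, so the p-values measure no more than the spread among these samples, and that spread may be technical.

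The targeted transcript went against the labels. The deposited DEK intensity was 2510, 293.9 and 2580 for shEMPTY-labelled libraries 1 to 3, 2360, 359.4 and 2826 for the shDEK14 label and 431.6, 1890 and 532.0 for the shDEK17 label. The labels thus disagree with DEK in the libraries labelled shEMPTY 2, shDEK14 1, shDEK14 3 and shDEK17 2, and every direction between groups given here depends on them. Libraries are named by their labels for this reason. Mean probe intensity was 362.2 to 457.2 per array, 12729 to 14152 probes were detected, and array pairs correlated across genes with r of 0.961 to 0.986. Of 12 myeloid markers with a probe, 8 to 11 were detected per library, beside 2 to 3 of 7 T and NK cell markers, 1 to 2 of 4 B cell markers, 1 of 5 plasmacytoid dendritic cell markers, 0 to 1 of 5 erythroid and megakaryocyte markers and 0 of 6 epithelial markers chosen for packaging cells. Of the T and NK cell list, CD3D and CD3E, which define T cells, and CD8A and GNLY were undetected in every library. NKG7 and IL7R were detected in every library, and CD2 in those labelled shDEK14 1 and shDEK17 3.

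The promoters of these genes differed in their letters for interferon response. RefSeq promoter windows of GRCh38.p14, which run from 250 bases before to 50 bases after the transcription start, were held for 4 of the 6 members. The core of the interferon-stimulated response element, which IRF-containing complexes bind, was searched on both strands as GAAA, any 2 bases and GAAA again, with overlapping copies counted. The 3 windows shown belong to ISG15, to the main human ligase and to the neighbour of that ligase on chromosome 4, with no other gene of the RefSeq table between HERC6 and HERC5. Motif letters are in capitals.
ISG15, chr1:1013247-1013546, plus strand: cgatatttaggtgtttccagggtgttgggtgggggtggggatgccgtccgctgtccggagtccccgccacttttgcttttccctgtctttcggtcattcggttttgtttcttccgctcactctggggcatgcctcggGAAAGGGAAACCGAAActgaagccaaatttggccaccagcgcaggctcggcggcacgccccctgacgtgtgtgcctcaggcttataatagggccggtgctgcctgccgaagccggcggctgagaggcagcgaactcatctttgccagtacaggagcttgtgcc
HERC5, chr4:88456869-88457168, plus strand: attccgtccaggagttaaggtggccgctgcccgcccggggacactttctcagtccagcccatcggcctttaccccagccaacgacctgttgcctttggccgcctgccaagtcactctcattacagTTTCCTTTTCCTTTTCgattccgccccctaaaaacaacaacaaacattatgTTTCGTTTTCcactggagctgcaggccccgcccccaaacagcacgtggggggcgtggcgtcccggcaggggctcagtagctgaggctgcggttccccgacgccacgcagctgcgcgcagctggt
HERC6, chr4:88378602-88378901, plus strand: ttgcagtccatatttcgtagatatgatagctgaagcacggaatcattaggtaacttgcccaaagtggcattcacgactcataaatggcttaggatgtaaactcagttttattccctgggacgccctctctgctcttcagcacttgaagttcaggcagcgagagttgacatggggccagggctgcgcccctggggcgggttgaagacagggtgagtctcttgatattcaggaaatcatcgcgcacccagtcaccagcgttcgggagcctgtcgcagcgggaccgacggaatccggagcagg
The ISG15 window held 2 overlapping copies, at -113 to -104 (GAAAGGGAAA) and at -107 to -98 (GAAACCGAAA) from the start. The HERC5 window held 3 copies on the opposite strand, where they read TTTCCTTTTC at -125 to -116, again at -119 to -110, and TTTCGTTTTC at -74 to -65. The HERC6 window and both windows of UBE2L6 on chromosome 11 held none. Among 35116 windows of all genes, 3.57% held the motif and 0.259% held it 2 or more times. A match of letters is a description and not a measured binding site.

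ISG15, the modifier itself, was far above its usual level in a single library, labelled shEMPTY 2. Its scaled intensity, the deposited intensity after 1 scaling factor per array, was 339, 10758 and 318 in shEMPTY-labelled libraries 1 to 3. It was 322, 343 and 409 under the shDEK14 label and 410.0, 465 and 324 under the shDEK17 label. The library labelled shEMPTY 2 stood 23.1-fold above the next highest and 31.5-fold above the median of the other 8, and among those 8 the highest was 1.46 times the lowest. On the normalized log2 scale ISG15 was 13.46 in that library and 7.81 to 8.62 in the others, a gap of 4.84 to the next library. In whole-culture RNA, many cells with some ISG15 and few cells with much of it cannot be told apart.

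**Figure D1:**
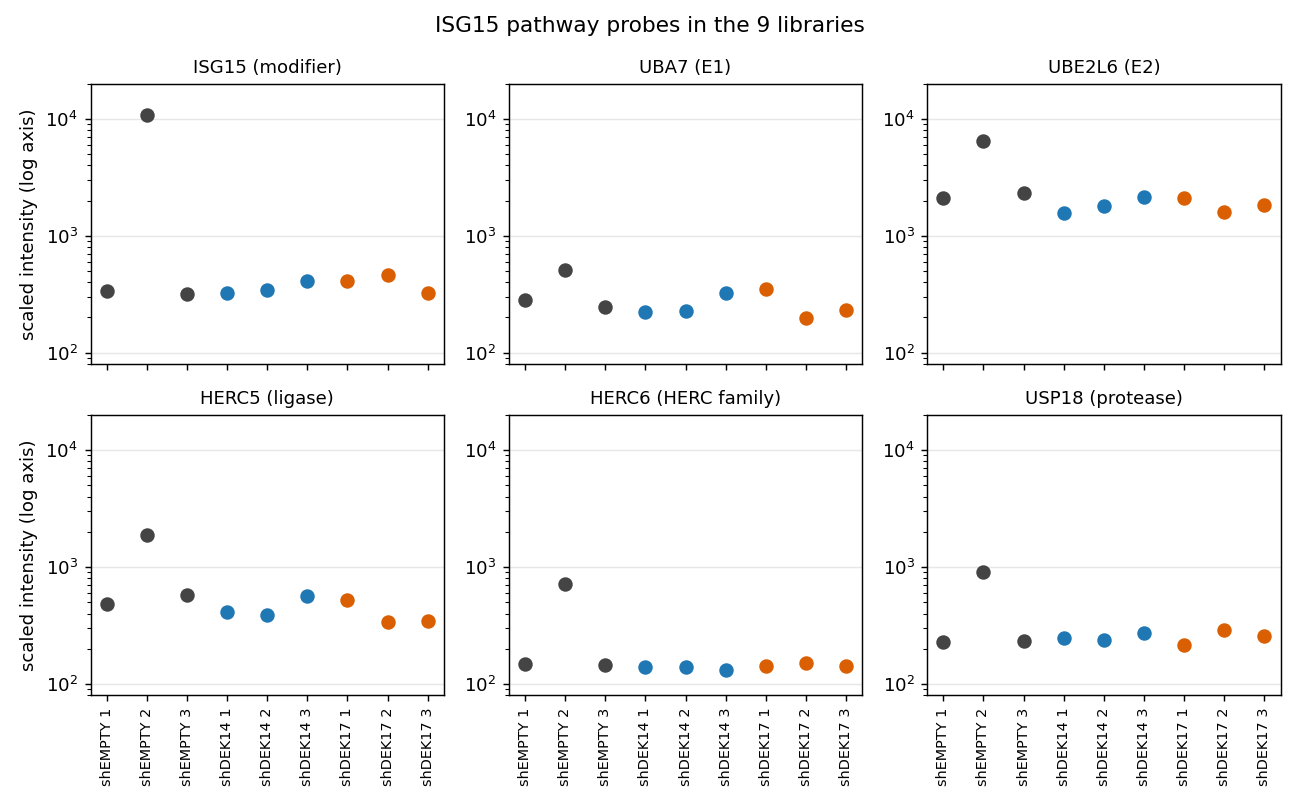
Scaled intensity (log axis) of the probe standing for each of the 6 genes in the 9 libraries, 1 point per library, coloured by labelled group. The library labelled shEMPTY 2 is the highest point in every panel, from 504 for UBA7 to 10758 for ISG15.

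UBA7, the E1 enzyme, showed the smallest deviation in that library. Its scaled intensity was 283, 504 and 245 in shEMPTY-labelled libraries 1 to 3, 221, 229 and 322 under the shDEK14 label and 347, 196 and 234 under the shDEK17 label. The library labelled shEMPTY 2 was again highest, 1.45-fold above the next one, while the other 8 spanned 1.77-fold by themselves. The gap on the log2 scale was 0.64, below the 1 log2 unit that all other members exceeded.

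UBE2L6, the E2 enzyme, was measured by 3 probes, of which 2 were detected on all 9 arrays. The brighter probe had a scaled intensity of 2092, 6519 and 2324 in shEMPTY-labelled libraries 1 to 3, of 1551, 1807 and 2133 under the shDEK14 label and of 2112, 1582 and 1845 under the shDEK17 label. The second probe gave 1359 in the library labelled shEMPTY 2 and 326 to 562 in the other 8. Both probes thus placed that library on top, 2.80-fold and 2.42-fold above the next. They ordered the other libraries differently, since the library labelled shDEK14 3 was the next highest for the second probe and the library labelled shEMPTY 3 for the first. The last probe was detected on no array, with detection p between 0.719 and 0.879, the library labelled shEMPTY 2 included.

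HERC5, the ligase, had a scaled intensity of 485, 1878 and 575 in shEMPTY-labelled libraries 1 to 3. It was 409, 389 and 564 under the shDEK14 label and 525, 338 and 346 under the shDEK17 label. The library labelled shEMPTY 2 was 3.27-fold above the next, and the libraries labelled shDEK17 2 and shDEK17 3 were the lowest. HERC6 was close to background elsewhere. It had 148, 710.4 and 144 in shEMPTY-labelled libraries 1 to 3, 140.1, 139.7 and 131 under the shDEK14 label and 143, 152 and 142 under the shDEK17 label. Its detection p was 0 in the library labelled shEMPTY 2 and passed 0.01 in 3 of the other 8, where it ranged from 0.00260 to 0.0377. The 4.66-fold distance of that library to the next highest is thus a distance from values near the negative controls, and its size on the log2 scale depended on the background correction.

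USP18, the protease, had a scaled intensity of 228, 901 and 231 in shEMPTY-labelled libraries 1 to 3, of 247, 237 and 273 under the shDEK14 label and of 216, 290.1 and 256 under the shDEK17 label. The library labelled shEMPTY 2 stood 3.11-fold above the next, the library labelled shDEK17 2. The near-identical paralogue USP41 had no named probe of its own here, so signal from it in the USP18 probe was not tested.

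Across the cascade, the library labelled shEMPTY 2 was therefore the highest of the 9 for 6 of 6 members, where 10.4% of all 8611 genes were highest in it. It was at least 1 log2 unit above every other library for 5 of 6, where 0.534% of genes (46) were. The deviation from the median of the 9 libraries was 5.38 for ISG15, 3.47 for HERC6, 2.31 for USP18, 2.16 for HERC5, 1.71 for UBE2L6 and 1.42 for UBA7 on the log2 scale. In the other 8 libraries, the deviations of all 6 members lay between -0.62 and 0.78. The members were listed with earlier results of these arrays known, so these counts describe the library and are no test.

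**Figure D2:**
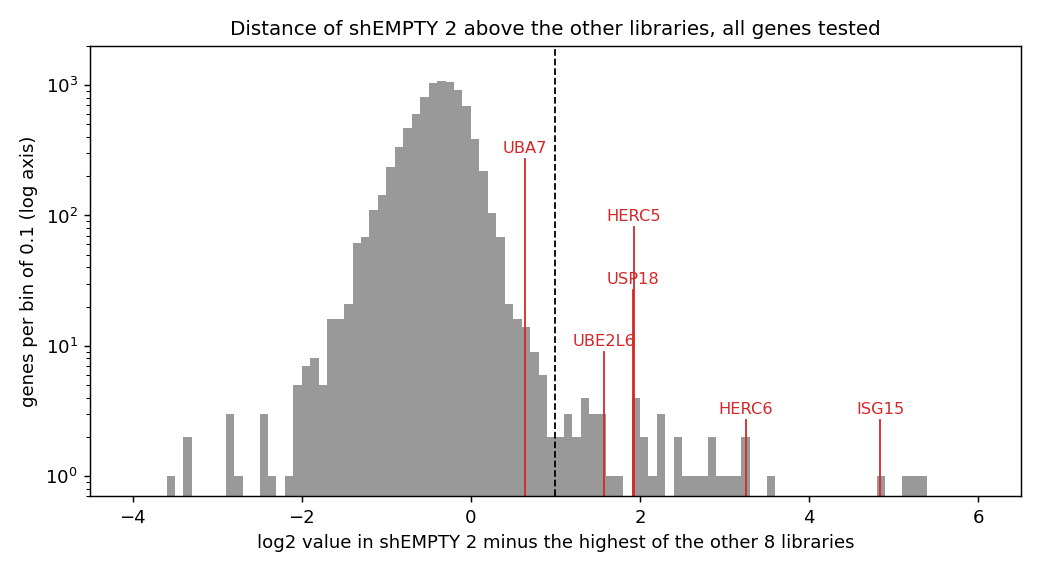
Histogram over the 8611 genes tested of the log2 value in the library labelled shEMPTY 2 minus the highest of the other 8 libraries (bins of 0.1, log axis for the number of genes). The dashed line marks 1 log2 unit, past which lie 46 genes, and red lines mark the 6 members, with UBA7 at 0.64 and ISG15 at 4.84.

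Among these 46 genes ISG15 ranked 4 by distance, behind IFIT1, IFIT3 and OAS2, antiviral proteins that bind viral RNA or make the activator of RNase L. HERC5 ranked 24, USP18 26 and UBE2L6 31. HERC6 was among them too, with a distance taken from values near background, so its rank is not given. The genes ahead of ISG15 were near background elsewhere too, with 5.75 to 6.85 for IFIT1, 5.72 to 6.34 for IFIT3 and 4.93 to 6.16 for OAS2. The lowest detected log2 value per array was 5.69 to 5.96, so the order depends partly on the background. PARP9 and DTX3L, partners in a mono-ADP-ribosylating E3 ligase complex, were also among them, with gaps of 3.21 and 1.49. Of the 38 of these genes with a promoter window, 23 (60.5%) held the response-element core, against 282 of 7106 (3.97%) among all tested genes with a window. The 46 genes were picked by their values in this library, so the shares are given without a test.

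DEK was also low in the library labelled shEMPTY 2, and its part in the ISG15 signal was not tested. The other libraries with a low DEK intensity were those labelled shDEK14 2, shDEK17 1 and shDEK17 3, where ISG15 had a scaled intensity of 343, 410.0 and 324, within the range of the remaining libraries. The 6 epithelial markers were undetected there too, with a summed scaled intensity of 680.3 against 578 to 648 in the other 8 libraries. The 5 plasmacytoid dendritic cell markers summed to 1035 there and to 924 to 1466 in the other 8, and of these only TCF4, which other cells also express, was detected, while CLEC4C and LILRA4 were not. T and NK cell markers summed to 1431 there against 1127 to 1794, and B cell markers to 890.3 against 742 to 1019. In the library labelled shEMPTY 2, erythroid and megakaryocyte markers, all undetected, summed to 582.0 against 524.1 to 579.7. Myeloid markers summed to 14008 against 9674 to 13928. The last 2 sums and the epithelial sum were thus the highest of any library. The part of other cell types in the ISG15 signal was not tested further.

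The genes around the cascade show which part of the ubiquitin-like machinery stood apart in that library. Of 5 other ISG15 ligases and regulators tested, TRIM25, an interferon-inducible E3 ligase, was the most displaced, with 8.74 in the library labelled shEMPTY 2 and 7.40 to 8.002 in the other 8. ARIH1, a ligase of the RING-between-RING type reported to work with UBE2L6, had 7.10 there and 7.03 to 8.02 elsewhere. None of the 5 was 1 log2 unit above every other library. The same held for 5 other proteases reported to act on ISG15, where the median deviation was -0.095. Among these proteases USP13 was below every other library there, with 8.17 against 8.63 to 8.96. The rest of them lay within the range of the other 8.

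The enzymes of related modifiers lay near their usual values in that library. HERC1, HERC2 and HERC4, the other tested members of the HERC family, had a median deviation of 0 there. The 6 tested E1 enzymes of other modifiers had a median of -0.062, and UBA1, the main E1 of ubiquitin, was 11.21 against a median of 11.06 in the other 8. The 13 tested E2 enzymes had a median of 0, and so had the 8 tested genes of ubiquitin and other ubiquitin-like modifiers. Of these 30 genes none lay 1 log2 unit above every other library, where the background is 0.534%.

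Interferon signalling split into few high and many level genes. IRF9, a transcription factor of interferon-stimulated genes, had 9.85 in the library labelled shEMPTY 2 and 5.57 to 6.70 elsewhere. IRF7, the factor that amplifies type I interferon transcription, had 9.45 there and 5.64 to 6.55 elsewhere. The other 6 tested inputs, among them IFNAR2, a chain of the type I interferon receptor (8.22 there, 8.01 to 8.39 elsewhere), were not 1 log2 unit above every other library.

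Interferon-induced effectors outside the cascade stood apart as the members did. Of 15 tested, 12 were at least 1 log2 unit above every other library. The median deviation was 3.17, beside 2.24 for the 6 members and 0 for all genes. Of the 12, RIGI was detected on 3 arrays only, so it passed the filter only with the library labelled shEMPTY 2 counted. IFIT1 had 12.21 in the library labelled shEMPTY 2 and 5.75 to 6.85 elsewhere. MX2 and BST2, both detected on 9 arrays, were highest there too, but with gaps of only 0.50 and 0.73. IFITM3, a membrane protein that blocks viral entry, had 5.76 there and 5.55 to 6.65 elsewhere. It was detected on 6 arrays with values near background, so no lack of change is read from it. A further 10 effectors, such as IFI44L and RSAD2, failed the filter on 3 arrays, and all 10 were detected in that library, 8 of them in no other. Of all 11435 genes left untested, 2.96% were detected in that library and 1.73% in no other, where the corresponding share for single other libraries was 0.332% to 1.51%.

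**Figure D3:**
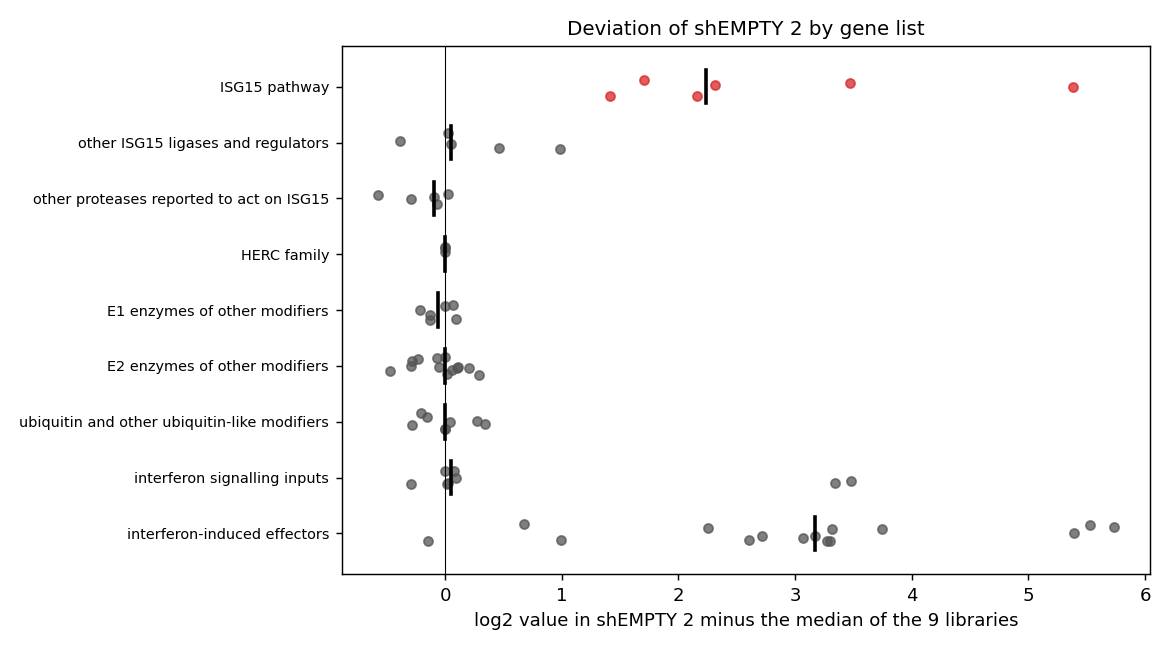
Deviation of the library labelled shEMPTY 2 from the median of the 9 libraries (log2) for each tested gene of the ISG15 pathway and of 8 related lists, 1 point per gene with a black bar at the median. The pathway (median 2.24) and the interferon-induced effectors (3.17) lie to the right, whereas the lists of other E1 and E2 enzymes, HERC proteins and modifiers lie around 0.

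The comparison by label asked whether these transcripts differed between libraries labelled with a hairpin and those labelled shEMPTY. DEK intensity went against the labels shEMPTY 2, shDEK14 1, shDEK14 3 and shDEK17 2, so the fold changes do not measure loss of DEK. Averaged over both hairpins and set against the libraries labelled shEMPTY, the log2 fold change was below 0 for 6 of 6 members (51.9% of all genes), with a median of -0.94 against -0.010 for all genes. None passed the threshold in limma's test across all genes, and no gene did (0%). At an unadjusted p under 0.05 the test found 452 of 8611 genes (5.25%), UBE2L6 and HERC5 among them, and the methods' t-test likewise found 0 genes after adjustment and 564 before it.

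Each fold change was set against a wide spread within the group labelled shEMPTY. Under the shEMPTY label, ISG15 was 9.75 ± 3.21 (SD of log2 values, n = 3), and it was 8.08 ± 0.20 under the shDEK14 label and 8.30 ± 0.34 under the shDEK17 label. The average log2 fold change was -1.56 ± 0.96 (SE), with a 95% interval from -3.67 to 0.54 (limma adjusted p = 0.960). HERC5 gave -1.06 ± 0.40 (limma adjusted p = 0.937), from 9.46 ± 1.19 in the libraries labelled shEMPTY to 8.50 ± 0.30 and 8.30 ± 0.43 under the shDEK14 label and shDEK17. For both genes the values under the shEMPTY label spread more widely than those under either hairpin label, and the groups overlapped.

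UBE2L6 gave -0.83 ± 0.32 (SE, limma adjusted p = 0.937) and its second probe -0.55 ± 0.42 (limma adjusted p = 0.947 over 14230 probes). HERC6 gave -1.23 ± 0.60 (limma adjusted p = 0.951). USP18 gave -0.59 ± 0.46 and UBA7 -0.47 ± 0.33 (limma adjusted p = 0.960 for both). For none of the 6 genes did all libraries labelled with a hairpin lie below all 3 labelled shEMPTY, which held for 1.59% of all genes.

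For 2 of the 6 members the direction depended on the library labelled shEMPTY 2. Without it, ISG15 gave 0.29 ± 0.21 (SE) and USP18 0.25 ± 0.21, both now above 0. HERC5 gave -0.38 ± 0.24, UBE2L6 -0.29 ± 0.19, HERC6 -0.085 ± 0.18 and UBA7 -0.061 ± 0.31. The limma adjusted p was 0.995 for 5 of the 6 and 0.998 for UBA7. The interval for ISG15 narrowed to -0.17 to 0.75. The library left out was the shEMPTY-labelled one with the highest ISG15, which by itself raises the fold change. This interval therefore excludes no decrease of ISG15. The median over the 6 members became -0.073, beside -0.016 for all genes.

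**Figure D4:**
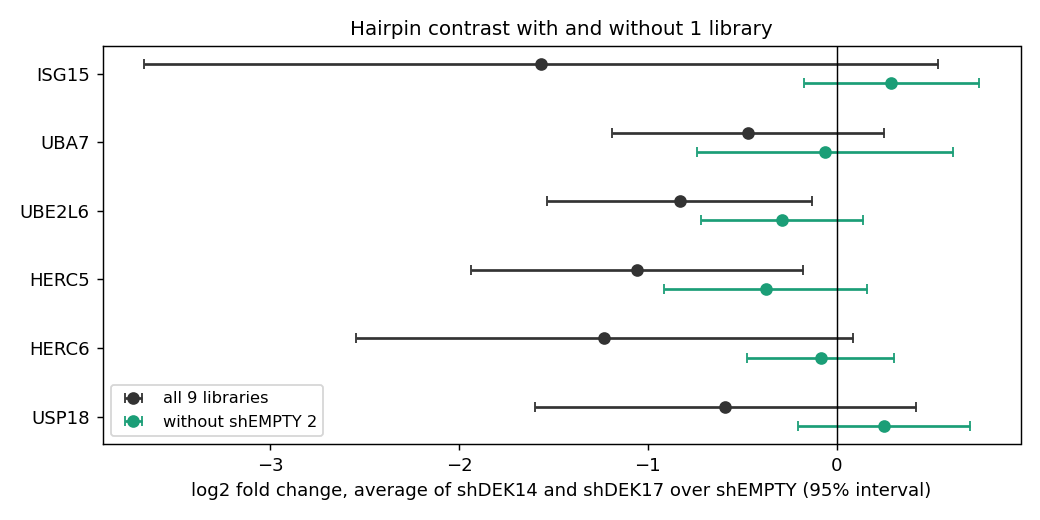
Log2 fold change of the 6 members for both hairpin labels averaged, over the shEMPTY label, with 95% intervals from limma, using all 9 libraries (dark) and without the library labelled shEMPTY 2 (green). ISG15 moves from -1.56 to 0.29 and USP18 from -0.59 to 0.25, and the intervals of ISG15 and HERC6 shrink most.

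Each hairpin by itself also gave 6 of 6 values below 0, as did 50.6% of all genes for shDEK14 and 53.3% for shDEK17. For the libraries labelled shDEK14 the 6 log2 fold changes ranged from -1.68 for ISG15 to -0.46 for UBA7 (limma adjusted p between 0.954 and 0.960), and for those labelled shDEK17 from -1.45 for ISG15 to -0.48 for UBA7 (limma adjusted p = 0.999 for all 6). At an unadjusted p under 0.05, UBE2L6 was found in both and HERC5 with shDEK17, where 4.54% and 3.8% of all genes were found. Both comparisons used the same libraries labelled shEMPTY. Between the libraries labelled shDEK14 and shDEK17, which leave out those labelled shEMPTY, the log2 differences lay between -0.22 for ISG15 and 0.20 for HERC5 (limma adjusted p from 0.9995 to 0.9997, with 1.81% of genes at an unadjusted p under 0.05). The 95% intervals ran from -2.65 to 2.20 for ISG15 and from -0.81 to 1.22 for HERC5, since the fit shared its spread with the group labelled shEMPTY. With the spread taken without the library labelled shEMPTY 2, the interval for ISG15 was -0.69 to 0.24.

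At baseline, in the 8 libraries other than that labelled shEMPTY 2, the members varied about as much as other genes. The SD over the 8 log2 values was 0.40 for UBA7, 0.35 for HERC5, 0.28 for ISG15, 0.24 for USP18, 0.23 for UBE2L6 and 0.16 for HERC6, beside a median of 0.26 over all genes. UBA7 varied most, and 13.2% of all genes had a larger SD. ISG15 ran from 7.81 in the library labelled shEMPTY 3 to 8.62 in that labelled shDEK17 2. A single library has no replicate of its own, so the order within these 8 is a description.

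The probes standing for the activating, conjugating and ligating enzymes tended to be high and low in the same libraries, though no pair passed the correction. UBA7, UBE2L6 and HERC5 were all at or below their medians of the 8 in the libraries labelled shDEK14 1, shDEK14 2, shDEK17 2 and shDEK17 3. The second UBE2L6 probe differed, with 8.31 and 8.35 in the libraries labelled shDEK14 2 and shDEK17 3. These values lay 0.16 and 0.20 above its median of the 9 libraries. In the library labelled shDEK17 2 the second probe had 8.13, a deviation of -0.021 from that median. Its relations were not tested, and the values below hold for the brighter UBE2L6 probe only. Pearson's r over the 8 libraries was 0.84 for UBE2L6 with HERC5 (Spearman's rho 0.86), 0.74 for UBA7 with HERC5 (rho 0.76) and 0.72 for UBA7 with UBE2L6 (rho 0.79). Exact two-sided permutation tests gave p = 0.0135, 0.0432 and 0.0509 for r and 0.0107, 0.0368 and 0.0279 for rho, and after adjustment over the 15 pairs of members all 3 had p = 0.184 for r and 0.161, 0.172 and 0.172 for rho. Without the 2 libraries farthest from the median of the first-named gene, r was 0.94, 0.60 and 0.70. Over the 5 processing settings, r stayed between 0.83 and 0.85, between 0.73 and 0.78 and between 0.70 and 0.75.

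USP18 had values below 0 with the same enzymes, with r of -0.68 with HERC5, -0.67 with UBE2L6 and -0.63 with UBA7, rho of -0.60, -0.74 and -0.55, and exact permutation p of 0.184, 0.184 and 0.189 after adjustment (0.283, 0.172 and 0.321 for rho). Without the 2 farthest libraries these became -0.34, -0.64 and -0.83. They depended on the normalization. Under median scaling r was -0.39, -0.38 and -0.39 (rho -0.29, -0.33 and -0.14), and the value with UBE2L6 became 0.10 without the 2 farthest libraries. HERC6 had r of -0.73 with UBA7 (rho -0.67) and -0.62 with HERC5 (rho -0.67), which fell in size to -0.37 and -0.40 without the 2 farthest libraries, with exact permutation adjusted p of 0.184 and 0.189 for r and 0.208 for both rho. In the authors' scaled values r was -0.43 (rho -0.17) and -0.38 (rho -0.19). The values of HERC6 there lay near background, and no direction is drawn from either gene.

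For ISG15 itself, the relation with its enzymes was weak or rested on few of these 8 libraries. Its r was 0.46 with USP18, 0.086 with HERC6, 0.050 with UBA7, -0.18 with UBE2L6 and -0.19 with HERC5, and the lowest exact permutation p after adjustment was 0.390. The corresponding rho values were 0.31, -0.095, 0.095, -0.095 and -0.24, with a lowest adjusted p of 0.683. Without the libraries labelled shDEK17 1 and shDEK17 2, the farthest from its median, r was 0.59, -0.78, 0.76, 0.15 and 0.20 over 6 libraries, so the values with HERC6 and UBA7 rested on which libraries entered. All 15 relations thus failed the correction.

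**Figure D5:**
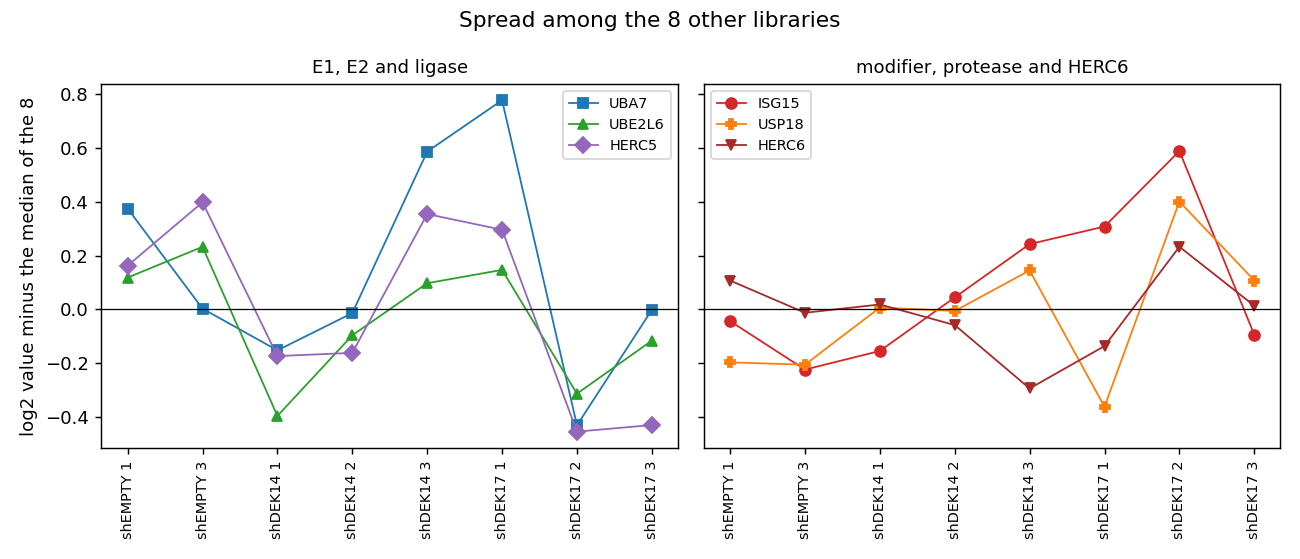
Log2 value minus the median of the 8 libraries for the E1 UBA7, the E2 UBE2L6 and the ligase HERC5 (left) and for ISG15, USP18 and HERC6 (right), without the library labelled shEMPTY 2. Lines only join the points of a gene. The 3 enzymes, UBE2L6 by its brighter probe, are low together in the library labelled shDEK17 2, where ISG15, USP18 and HERC6 have their highest values. The second UBE2L6 probe is not plotted and lay near its median in that library.

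Over all 9 libraries the genes whose pattern was most like that of ISG15 were IFI6, PARP9 and IFIT3 (Pearson r of 0.99 for each), followed by TAP1, IFIT1, XAF1, OAS2, SHISA5, IRF7 and PSMB9, with r from 0.97 to 0.99. TAP1 and PSMB9 serve peptide loading of MHC class I, as a transporter and a proteasome subunit. Of the members, HERC6 had 0.98, USP18 0.97, UBE2L6 0.93, HERC5 0.90 and UBA7 0.75, and 45 genes exceeded 0.9. These values rest on 1 library. Without the library labelled shEMPTY 2, the 10 genes had r between -0.22 for SHISA5 and 0.84 for PSMB9, the latter being 7.73 to 8.35 in those 8 libraries.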

How the data were processed

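Total RNA of 9 U937 samples was hybridised to Illumina HumanHT-12 v4 bead arrays, with 3 libraries per labelled group. For each array the authors deposited a mean bead intensity for 47323 probes, not yet normalized or background-subtracted, and a detection p-value per probe, in steps of 1 in 770, against the negative control beads of the array. A second deposited table held the same intensity values multiplied by 1 factor per array to a common mean of 406.2, on a linear scale and not centred, with column medians from 110.1 to 119.3. For the rule behind the factor and the scanner software, the sources used here give nothing. The supplied platform annotation gave 30113 probes 1 symbol, 8 several and 17202 none, and 30074 matched RefSeq (GRCh38.p14), which was used for names, neighbours and promoter windows. No protein sequence was used here.

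Intensities were background-corrected and quantile-normalized with neqc (limma 3.58.1, R 4.3.3, offset 16). Of 14230 kept probes, 3032 without a single symbol were left out, and for 2156 genes with several probes the brightest stood for the gene. The limma fit took all 9 arrays, with group means and no covariate, and Benjamini-Hochberg adjustment ran over 8611 genes with a threshold of 0.05. Relations between members used exact permutation tests in Python 3.11.15 with scipy 1.17.1. The number of arrays limits the precision. The fit was run on simulated data with independent normal noise, equal spread in all groups and no library standing apart. These arrays differ from that setting, so the simulation does not show how the fit behaves on them.

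The members, gene lists, markers and motifs were chosen with earlier results of these data known. Besides the members, up to 3 genes per list with the largest average fold change, the 10 genes most correlated with ISG15 and DEK were to be named. The other named genes (IFNAR2, IFITM3, MX2, BST2, RIGI, DTX3L, IFI44L and RSAD2) were chosen after their values were seen. So were the 10 pairs of members without ISG15. Alternatives covered background correction, normalization, the authors' scaled values, the filter, the choice of probe, the replicate number as a block, variance moderation, the samples in the fit, the methods' t-test (with Fisher's method, a choice made here, to combine the p-values of both hairpins), and libraries left out.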

Additional observations from a re-analysis of the deposited data

Results flagged for a closer look

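Over all 9 libraries, 5 of the 6 members had 1 library far from the others, each time the library labelled shEMPTY 2. The gap to the next library took up 0.860 of the whole range of log2 values for HERC6, 0.856 for ISG15, 0.715 for USP18, 0.714 for UBE2L6 and 0.693 for HERC5. In the 6 libraries labelled with a hairpin, no member had such a library. Of 12 sets examined 5 stood out, where chance picks about 1 in 20. The genes share their libraries and were listed with this library known, so the count is a description and no test.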

How the results depend on the processing

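Under 11 settings that kept all libraries, all 198 member fold changes against the libraries labelled shEMPTY stayed below 0 and none passed (lowest limma adjusted p 0.821). Many of these values repeat the main estimate. Changing the filter, choice of probe, block, variance moderation, groups in the fit or test left it unchanged (-1.56 for ISG15 in the average). Only other background corrections, median scaling and the authors' scaled values could have altered a sign. HERC6 moved most, from -1.23 to -0.78 for the average, and its deviation in the library labelled shEMPTY 2 from 3.47 to 2.26 without background correction, 2.31 in the authors' values and 2.85 with an offset of 50. The labels tie replicate numbers to an experiment across groups without saying what was shared, and the main fit did not take the numbers as pairs. Same-numbered deviations correlated between -0.43 and 0.27. They were taken within labelled groups that mix low and high DEK, so they cannot show that the numbers carry no pairing. With the replicate block, 0 genes were called in each comparison, with 331, 260, 245 and 116 at an unadjusted p under 0.05 against 452, 391, 327 and 156 without it.

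Between both hairpins, median scaling reversed UBE2L6 (0.047) and USP18 (0.091). With libraries left out (12 settings), no member passed (lowest adjusted p 0.646). The average ranged from -2.54 to 0.29 for ISG15, -0.85 to 0.11 for UBA7 and -1.05 to 0.25 for USP18. shDEK14 ranged from -2.75 to 0.18 for ISG15, -0.98 to 0.028 for UBA7 and -1.06 to 0.28 for USP18, and shDEK17 from -2.43 to 0.40, -0.93 to 0.20 and -1.04 to 0.25. Between hairpins the ranges were -0.26 to 0.50 for UBA7, -0.16 to 0.22 for UBE2L6, -0.089 to 0.54 for HERC5 and -0.21 to 0.20 for USP18. The values above 0 against shEMPTY came without the library labelled shEMPTY 2 or without all 3 libraries numbered 2. In the latter setting 1, 4 and 1 genes were called in the average, shDEK14 and shDEK17 comparisons and 10 between hairpins, against 0 in every other. No member was among them.

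With probes detected on at least 1 array kept, 74 of 9870 genes (0.75%) lay 1 log2 unit above every other library in that labelled shEMPTY 2, against 46, with 40 to 44 under the 4 other settings. The members counted stayed 5 of 6 under each. This filter was added after the data were seen. Few arrays and the low signal of HERC6 over background limit the precision.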
